A study of Mus musculus with 6 samples.

Results

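Amino acid transporters were examined in mouse RNA sampled at embryonic day 9.5, on the C57BL/6N background. The 6 libraries were labelled as whole embryo, 3 from wild type (WT) and 3 from embryos homozygous for a knockout (KO) of Lphn2, the gene of the adhesion receptor latrophilin-2, now named Adgrl2. The genes were taken by symbol from 6 solute carrier (Slc) families: Slc1, Slc3, Slc7, Slc36, Slc38 and Slc43. The pattern matched 44 of 24421 symbols, of which 2, Slc7a6os and Slc36a1os, are genes on the opposite strand and no transporters. Of the 42 transporters, 28 averaged at least 1 CPM over the 6 libraries, 14 lay below it and 2 of those 14, Slc7a12 and Slc38a11, had no count in any library. Levels are in CPM, a gene's counts relative to its library's total, after TMM scaling, which corrects library sizes for differences in composition. The lowest transporters above 1 CPM were Slc1a6 at 1.17 and Slc7a11 at 1.19 CPM, and the first below it was Slc7a10 at 0.922 CPM. Of the 28, 27 had enough counts to be tested, the exception being Slc1a2.

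Amino acids cannot cross membranes unaided. Slc7 proteins of the LAT type trade one amino acid for another and reach the cell surface bound to a heavy chain of the Slc3 family, whereas Slc38 and Slc1 proteins use the sodium gradient to concentrate amino acids inside the cell, and Slc36 proteins are driven by protons. In the mouse conceptus at this stage the yolk sac and the early placenta feed the embryo, and system A transporters of the Slc38 family carry much of the neutral amino acid supply there. Lack of amino acids activates the transcription factor ATF4, which raises transcription of several transporters through a site called the C/EBP-ATF response element.

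That element was searched in the RefSeq promoter windows (GRCm38.p6, the assembly of mm10), which run from 250 bases before a transcription start to 50 after it. The letters searched were TGATGNAA on both strands, and 3.97% of all 32851 windows of that length held them. Windows existed for 31 of the 42 transporters and for 20 of the 28 above 1 CPM. Slc1a4, Slc7a11 and Slc7a7 were the members with a match, in 4 of the 42 transporter windows. Their windows are shown as those, among transporters with a window, that carry the letters of the ATF4 element. A match is a description of the letters, not a site, and transporters without a window could not be searched. The capitals mark the matches. The Slc1a4 window is chr11:20332664-20332963, the Slc7a11 window chr3:50443564-50443863 and the Slc7a7 window, 1 of several for that gene, chr14:54417895-54418194, all on the minus strand.
Slc1a4: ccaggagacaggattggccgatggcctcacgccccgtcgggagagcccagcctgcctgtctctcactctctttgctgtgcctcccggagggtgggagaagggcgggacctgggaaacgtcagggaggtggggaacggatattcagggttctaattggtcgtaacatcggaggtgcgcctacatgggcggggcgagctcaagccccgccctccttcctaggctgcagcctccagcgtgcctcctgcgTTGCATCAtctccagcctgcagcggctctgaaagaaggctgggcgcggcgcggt
Slc7a11: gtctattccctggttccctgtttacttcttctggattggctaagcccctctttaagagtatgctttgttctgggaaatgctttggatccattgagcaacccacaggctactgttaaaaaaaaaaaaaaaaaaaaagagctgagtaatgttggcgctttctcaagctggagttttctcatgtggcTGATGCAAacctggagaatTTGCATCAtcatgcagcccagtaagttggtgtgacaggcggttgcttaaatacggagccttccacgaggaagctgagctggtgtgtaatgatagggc
Slc7a7: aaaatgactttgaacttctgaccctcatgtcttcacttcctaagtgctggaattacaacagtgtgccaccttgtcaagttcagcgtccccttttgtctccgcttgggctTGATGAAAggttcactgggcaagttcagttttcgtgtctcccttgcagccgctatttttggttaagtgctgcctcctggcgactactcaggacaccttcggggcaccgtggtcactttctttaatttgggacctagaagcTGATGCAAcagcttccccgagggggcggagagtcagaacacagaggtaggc

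The next windows belong to Slc38a4 and Slc7a9, chosen after their values were seen from the transporters low or at 0 in KO replicates 2 and 3. Among others with that pattern, Slc38a5 had a window without a match and Slc38a3 had no window. Slc3a1 and Slc7a7 also had a match. The capitals mark AGATAA on either strand, the core of the site read by GATA factors, which act in trophoblast and yolk sac endoderm. These letters occurred in 11.2% of all windows and in 5 of the 42 transporter windows, a share near the background, and a match is a description of the letters, not a site. The Slc38a4 window is chr15:97031164-97031463 on the minus strand, and is 1 of 3 windows for that gene. The Slc7a9 window is chr7:35448842-35449141 on the plus strand. The tags come from the 3' end of transcripts and do not show which start was used.
Slc38a4: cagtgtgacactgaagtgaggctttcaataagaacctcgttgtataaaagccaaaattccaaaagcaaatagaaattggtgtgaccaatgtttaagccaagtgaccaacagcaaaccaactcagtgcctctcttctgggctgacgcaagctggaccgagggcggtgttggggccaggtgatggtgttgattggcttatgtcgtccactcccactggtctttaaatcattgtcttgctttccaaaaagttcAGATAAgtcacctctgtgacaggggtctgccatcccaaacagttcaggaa
Slc7a9: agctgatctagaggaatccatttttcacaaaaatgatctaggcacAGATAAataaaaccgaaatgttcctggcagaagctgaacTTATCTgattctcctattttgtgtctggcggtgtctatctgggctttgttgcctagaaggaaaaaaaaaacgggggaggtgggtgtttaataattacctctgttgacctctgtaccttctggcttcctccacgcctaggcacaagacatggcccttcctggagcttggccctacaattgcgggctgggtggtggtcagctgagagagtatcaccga

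Tissue markers varied widely between libraries. Total counts ranged from 18352150 to 36213611 in WT and from 14476809 to 23887717 in KO libraries. The summed level of 12 decidual markers, genes of the maternal lining, was 19568 to 35419 CPM in WT and 5507 to 10025 CPM in KO libraries, although the median decidual gene stood higher in each KO library than the WT mean. The sum of 12 trophoblast markers was 2296 to 8999 CPM in WT, 5488 CPM in KO replicate 1 and 88.5 and 265 CPM in KO replicates 2 and 3, with Prl3b1, Prl7b1, Gcm1, Psg21, Ctsq and Cts7 at 0 in at least 1 KO library and Gcm1 and Ctsq also in WT replicate 3. For 14 yolk sac markers the sum was 464 to 721 CPM in WT and 219, 25.5 and 39.3 CPM in KO replicates 1, 2 and 3, where Hnf4a, Amn, Cubn and Ttr were among 9 markers at 0 in at least 1 library. Markers of the embryo itself were low in all KO libraries, at 8.05 to 50.9 CPM over 10 genes of the nervous system against 57.2 to 523 CPM in WT, and at 4.73 to 17.8 against 38.6 to 292 CPM over 8 heart genes, of which Nkx2-5 was at 0 in at least 1 library of each group. The 6 mesoderm genes summed to 17.2 to 80.03 CPM in WT and 13.4 to 25.5 CPM in KO libraries. In each of these embryo lists WT replicate 2 was the lowest WT library. Its nervous system sum, 57.2 CPM, was near the 50.9 CPM of KO replicate 1, and its mesoderm sum lay below that of KO replicate 1. The 9 erythroid genes summed to 3722 to 6477 CPM in WT and 825 to 1450 CPM in KO libraries, and the 12 uterine natural killer genes to 988 to 2323 and 3145 to 5631 CPM. The 8 endothelial genes summed to 880.004 to 1568 and 1267 to 1796 CPM, and the 6 macrophage genes to 238 to 573 and 252 to 297 CPM. In such mixed tissue, fewer cells of a type and less RNA per cell cannot be told apart, and the part of tissue content in the transporter values below was not tested. Adgrl2 itself stood at 10.9, 7.56 and 15.96 CPM in WT and at 5.49, 1.67 and 2.78 CPM in KO libraries, but its 3' tags can lie outside the deleted part and do not check the labels.

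No transporter passed the threshold over all genes. By the quasi-likelihood test of edgeR, 0 of 27 were higher and 0 lower in the KO at an adjusted p under 0.05, against 0% and 0.0505% of 13848 genes tested. Before adjustment, 2 transporters had a higher and 6 a lower KO level at p under 0.05, where the shares over all genes were 8.68% and 6.86%. DESeq2 called 1 higher, Slc7a8, and 3 lower, Slc7a2, Slc7a9 and Slc1a3, beside 2.98% and 3.26% of its 15237 genes. The KO libraries all lay above the WT libraries for 4 transporters (14.8% of 27, against 12.1% of all genes tested), namely Slc7a8, Slc7a3, Slc43a3 and Slc38a9. They all lay below for 6 (22.2%, against 9.39%), namely Slc7a2, Slc7a6, Slc7a9, Slc1a4, Slc38a6 and Slc43a1. The log2 fold change of KO over WT was positive for 11 and negative for 16, with a median of -0.20, while the median over all genes tested was -0.04 and 53.4% of them were negative. By family the median was 0.04 over 10 Slc7 genes, -0.37 over 8 Slc38 genes, -0.87 over 4 Slc1 genes and 0.18 over 3 Slc43 genes, with 0.25 for the only tested Slc3 gene and -0.72 for the only tested Slc36 gene.

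**Figure D1:**
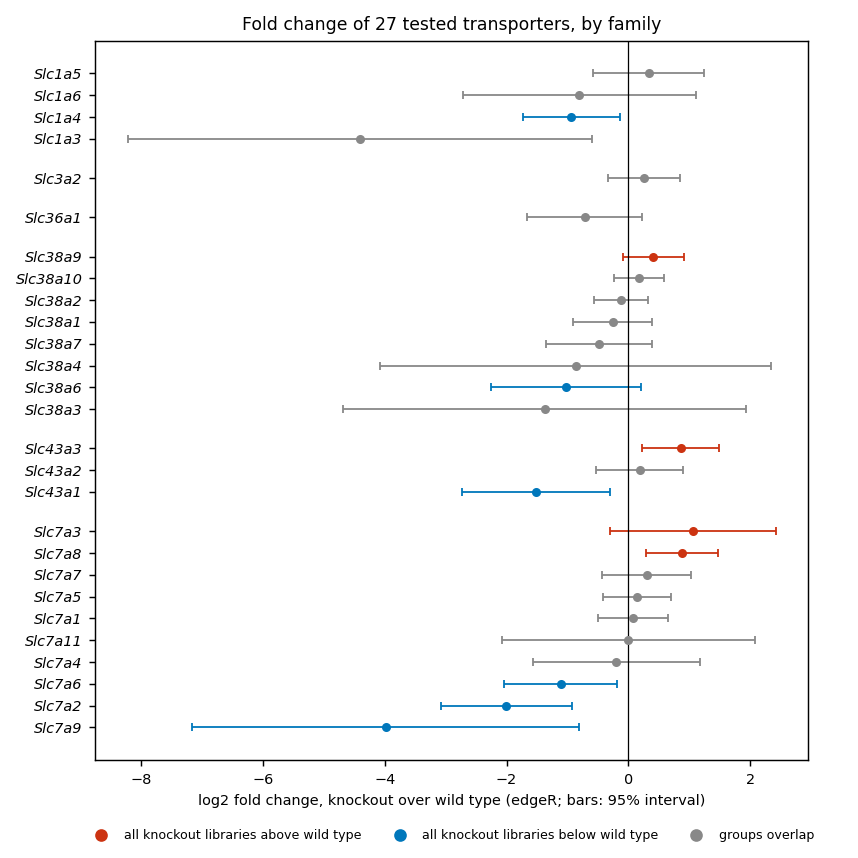
Log2 fold change of KO over WT for each of the 27 tested transporters, grouped by family, with bars for the 95% interval of the edgeR fit. Colours show whether the 3 KO libraries all lie above the 3 WT libraries, all lie below them or overlap with them. The 4 transporters in red and the 6 in blue are those whose groups do not overlap, and the widest interval is that of Slc1a3, from -8.22 to -0.60.

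The heavy chain of the surface exchangers, Slc3a2 (CD98), lies on chromosome 19 at 8706882 to 8723369 in mm10, minus strand. It was read at 142, 223 and 125 CPM in WT replicates 1, 2 and 3 and at 168, 219 and 198 CPM in KO replicates 1, 2 and 3. The groups overlapped, with WT replicate 2 the highest of all libraries, and the log2 fold change was 0.25 with a 95% interval of -0.34 to 0.85. Slc3a1, the heavy chain rBAT, was read at 0.181, 0.122 and 0 CPM in WT replicates 1, 2 and 3 and at 0.196, 0.0667 and 0.214 CPM in KO replicates 1, 2 and 3, at most 5 counts in any library.

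Among the light chains that bind Slc3a2, Slc7a8 and Slc7a6 had groups that did not overlap, in opposite directions. Slc7a8 encodes LAT2, which exchanges neutral amino acids, and lies on chromosome 14 at 54722209 to 54781946, minus strand. Slc7a8 was read at 183, 208 and 115 CPM in WT replicates 1, 2 and 3 and at 278, 357 and 292 CPM in KO replicates 1, 2 and 3. Every KO library lay above every WT library, and the group means were 168 ± 48.4 CPM in WT and 309 ± 41.95 CPM in KO (SD, n = 3 per group). The fitted difference was 1.83-fold, a log2 fold change of 0.88 ± 0.25 (SE), with an edgeR adjusted p of 0.195 and a DESeq2 adjusted p of 0.0333 (range over all alternatives 0.0333 to 0.9995). The uterine natural killer sum was also higher in each KO library than in each WT library. The same held for the decidual genes Pgr, Hoxa10, Hoxa11, Wnt4, Bmp2 and Dio3. Of the other decidual genes, Prl8a2, Erv3 and Prl3c1 lay below, and Hand2, Cryab and Hsd11b2 overlapped. It also held for the endothelial genes Cdh5, Emcn, Tek, Tie1 and Ramp2, while Pecam1, Kdr and Erg overlapped, and for 12.1% of all genes tested. The decidual sum, in WT mostly Prl8a2, was lower in each KO library, and the endothelial sums overlapped. The part of these tissues in the Slc7a8 values was not tested.

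Slc7a5 encodes LAT1, the main importer of large neutral amino acids such as leucine. Its level was 47.5, 75.1 and 66.9 CPM in WT replicates 1, 2 and 3 and 83.3, 70.0 and 55.03 CPM in KO replicates 1, 2 and 3. The groups overlapped, and the log2 fold change was 0.14 with an interval of -0.42 to 0.70, so that differences of the size seen in Slc7a8 lay outside it. The difference between these genes was not tested.

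Slc7a6 encodes y+LAT2, which exports arginine in exchange for neutral amino acids and sodium. It was read at 9.38, 7.495 and 10.03 CPM in WT replicates 1, 2 and 3 and at 2.86, 3.07 and 6.56 CPM in KO replicates 1, 2 and 3. All KO libraries lay below all WT libraries, with KO replicate 3 nearest to them, and the log2 fold change was -1.11 ± 0.40 (SE, edgeR adjusted p = 0.257). Its relative Slc7a7, y+LAT1, which is found in epithelia and macrophages, averaged 14.4 ± 2.98 CPM in WT and 17.7 ± 6.37 CPM in KO libraries (log2 fold change 0.30, interval -0.43 to 1.03). Slc7a11, the cystine importer xCT and a known ATF4 target, averaged 1.19 ± 1.26 and 1.19 ± 0.354 CPM, with WT libraries between 0.217 and 2.61 CPM. Slc7a6os, a gene 2.01 kb from Slc7a6 on the other strand, averaged 7.45 ± 2.79 and 4.97 ± 0.984 CPM, and no source used here says whether counting was by strand.

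Slc7a9 encodes the partner of rBAT that takes up cystine and basic amino acids across the apical side of kidney and gut epithelia, and its promoter window is the last shown above. It was read at 4.02, 9.14 and 1.803 CPM in WT replicates 1, 2 and 3, at 0.824 CPM in KO replicate 1 and at 0 in KO replicates 2 and 3. All KO libraries lay below all WT libraries, and the WT libraries themselves spanned a wide range. The log2 fold change was -3.98 ± 1.35 (SE, edgeR adjusted p = 0.245, DESeq2 adjusted p = 0.0249, range over all alternatives 0.0249 to 0.9995). Set against a floor of 3 counts over KO replicates 2 and 3 together, the WT mean was at least 48.3-fold higher, and against KO replicate 1 it was 6.06-fold higher. The WT mean leaned on WT replicate 2, without which these values were 28.2-fold and 3.54-fold. Without KO replicate 1 the edgeR adjusted p was 0.0412, in a fit that called 3.27% of all 14249 genes lower. Both KO libraries of that fit were at 0, so Slc7a9 passed its count filter through WT libraries alone. Within the KO group the yolk sac and trophoblast sums were also lower in replicates 2 and 3 than in replicate 1. In WT replicate 3, where Slc7a9 was lowest among WT libraries, the yolk sac sum was the highest, at 721 CPM. That sum leaned on Afp, at 342 CPM, and Trf, at 164 CPM. The median log2 deviation of the 14 yolk sac genes from the WT mean was -0.03, 0.35 and -0.36 in WT replicates 1, 2 and 3. By that measure WT replicate 3 was the lowest of WT, as it was for Slc7a9. The trophoblast sum was also the lowest of WT in replicate 3, at 2296 CPM. The part of these tissues in the Slc7a9 values was not tested.

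The cationic transporters that work without a heavy chain carry arginine and lysine. Slc7a2, the transporter CAT2 of liver, muscle and activated macrophages, lies on chromosome 8 at 40862396 to 40922308, plus strand. It was read at 9.56, 11.2 and 15.5 CPM in WT replicates 1, 2 and 3 and at 4.24, 1.33 and 3.42 CPM in KO replicates 1, 2 and 3. All KO libraries lay well below all WT libraries, and this was the transporter with the smallest p. The WT level was 4.01-fold higher in the fit, a log2 fold change of -2.003 ± 0.46 (SE, edgeR adjusted p = 0.170, DESeq2 adjusted p = 0.00325, range over all alternatives 0.00325 to 0.9995). All its counts were multiples of 4, which leaves 66, 46 and 148 tags in WT and 27, 5 and 12 in KO libraries if each was counted 4 times, in which case the counting error would be larger than the counts show.

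Slc7a1 (CAT1), found in most dividing cells, averaged 50.7 ± 13.4 CPM in WT and 53.4 ± 9.12 CPM in KO libraries (log2 fold change 0.08, interval -0.50 to 0.65). Slc7a3 (CAT3), an X-linked gene of the early embryo and brain, stood at 3.41, 0.731 and 1.88 CPM in WT and 3.76, 5.33 and 3.56 CPM in KO libraries. The KO values all lay above the WT values, by a narrow margin over WT replicate 1 (log2 fold change 1.06 ± 0.58 SE, edgeR adjusted p = 0.418). Slc7a4, an orphan of this group, averaged 1.403 ± 0.354 and 1.23 ± 0.606 CPM.

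**Figure D2:**
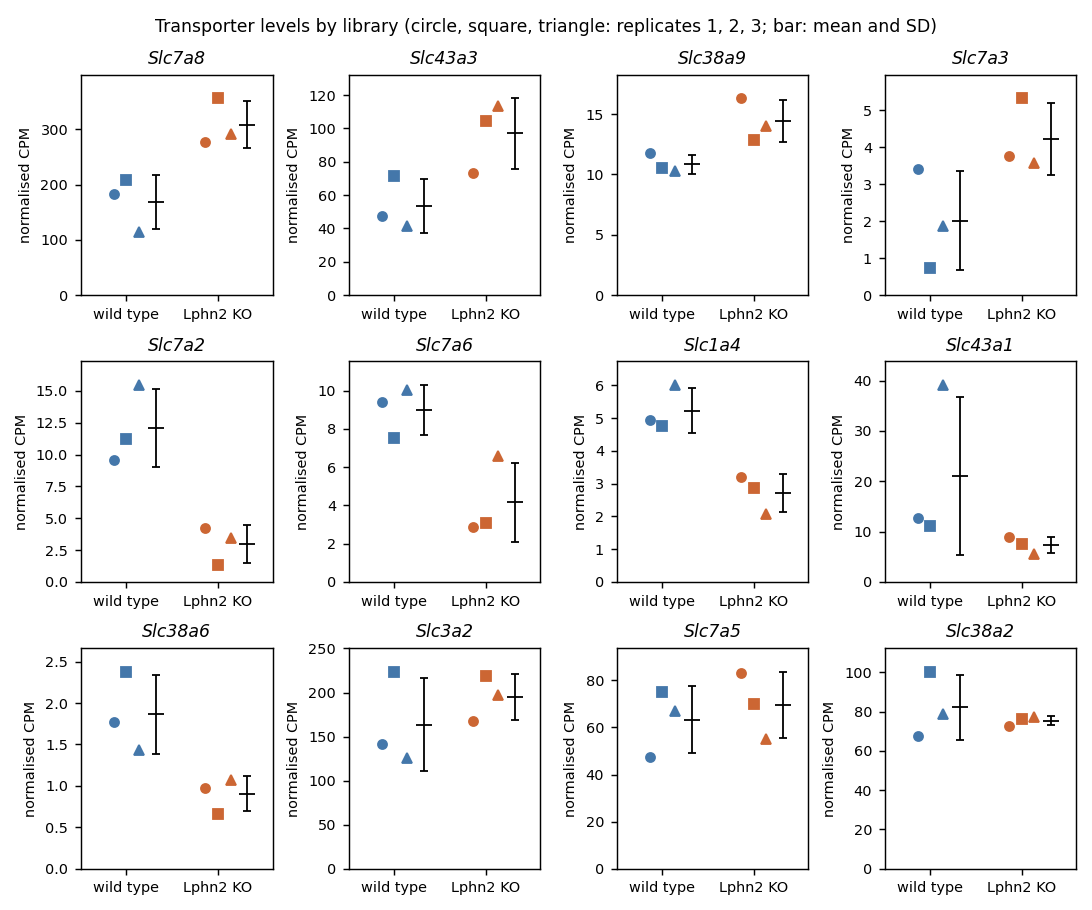
TMM-normalised CPM of 12 transporters in each library, 1 panel a gene with an axis of its own from 0, with WT in blue, KO in orange, marker shape for the replicate number and a bar for the mean and SD of 3 libraries. Slc7a8, Slc43a3, Slc38a9 and Slc7a3 have all KO points above the WT points, Slc7a2, Slc7a6, Slc1a4, Slc43a1 and Slc38a6 have all below, and Slc3a2, Slc7a5 and Slc38a2 overlap.

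Of the 8 tested genes of the sodium-coupled Slc38 family, 2 had positive and 6 negative log2 fold changes, and none passed the threshold in edgeR with all 6 libraries. Slc38a1 (SNAT1), a system A carrier of glutamine and alanine, was read at 372, 347 and 282 CPM in WT and at 383, 189 and 264 CPM in KO libraries. The groups overlapped, KO replicate 2 was the lowest, and the log2 fold change was -0.26 with an interval of -0.91 to 0.39. Slc38a2 (SNAT2), which is induced when amino acids are scarce, was read at 67.5, 100.2 and 78.7 CPM in WT and at 72.8, 76.0 and 77.1 CPM in KO libraries, with an interval of -0.56 to 0.32. Slc38a10, of the Golgi and endoplasmic reticulum, was read at 219, 187 and 162 CPM in WT and at 229, 215 and 198 CPM in KO libraries, with an interval of -0.24 to 0.58. For these 3 carriers a log2 difference of 1 lay outside the interval in either direction.

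Slc38a4 and Slc38a3 were singled out after their values were seen. Slc38a4 (SNAT4) is an imprinted system A transporter of the placenta and liver. It was read at 110.1, 90.5 and 60.6 CPM in WT replicates 1, 2 and 3, at 137 CPM in KO replicate 1 and at 2.2 and 2.78 CPM in KO replicates 2 and 3. KO replicate 1 was thus the highest of all libraries and the other KO libraries the lowest, so that the group comparison gave a log2 fold change of -0.87 ± 1.37 (SE, edgeR adjusted p = 0.783). Without KO replicate 1 the log2 fold change was -5.13 (edgeR adjusted p = 0.00669, in a fit that called 3.27% of all 14249 genes lower), the WT mean being 34.96-fold the mean of KO replicates 2 and 3, and with KO replicate 1 alone it was 0.68 (adjusted p = 0.9995). The adjusted p ranged from 0.00669 to 0.9995 over all alternatives.

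Slc38a3 (SNAT3), a glutamine carrier of liver, kidney and brain, followed the same libraries. It stood at 9.89, 19.01 and 14.4 CPM in WT, at 15.8 CPM in KO replicate 1, at 0.600 CPM (9 counts) in KO replicate 2 and at 0 in KO replicate 3. Without KO replicate 1 its edgeR adjusted p was 0.0376, in the same fit that called 3.27% of all 14249 genes lower. With 9 and 0 counts in KO replicates 2 and 3, Slc38a3 passed the count filter of that fit through the WT libraries. With all 6 libraries the edgeR adjusted p of Slc38a3 was 0.669, and the highest value with 1 library left out was 0.913, without KO replicate 2. The trophoblast sum was likewise below its WT range in KO replicates 2 and 3, at 88.5 and 265 CPM, while KO replicate 1 lay inside that range at 5488 CPM. The yolk sac sum of KO replicate 1, at 219 CPM, lay below the WT range. The part of these tissues in the values of Slc38a4 and Slc38a3 was not tested.

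**Figure D3:**
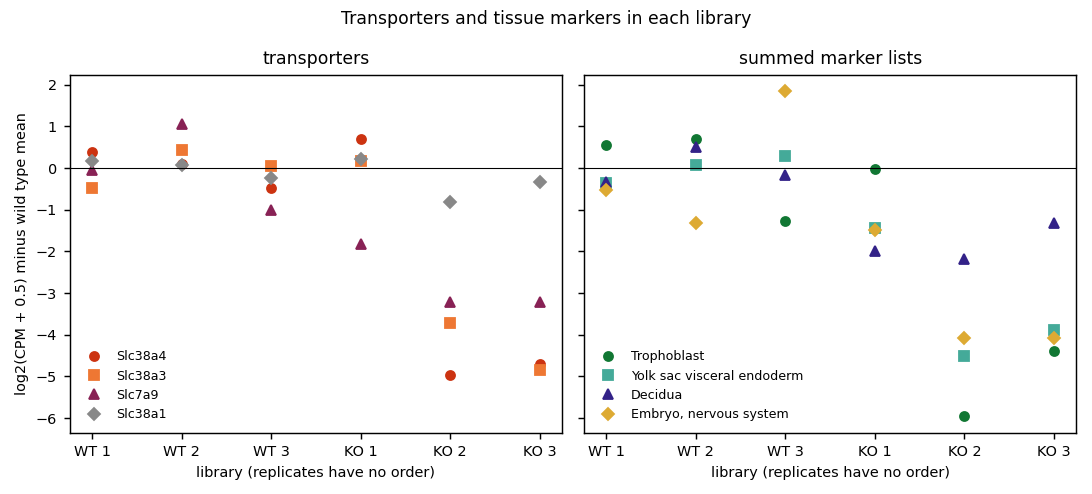
Level in each of the 6 libraries, as log2(CPM + 0.5) minus the WT mean on that scale, for 4 transporters on the left and for the summed CPM of 4 marker lists on the right. Slc38a4 and Slc38a3 are within 1 unit of the WT mean in KO replicate 1 and far below it in KO replicates 2 and 3, as is the trophoblast sum, while Slc38a1 stays within 1 unit of the WT mean in all libraries.

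Slc38a1, Slc38a2 and Slc38a4 lie in a row on chromosome 15 of mm10, with 44.5 kb between Slc38a1 and Slc38a2 and 295 kb between Slc38a2 and Slc38a4 (96994820 to 97055956). In KO replicates 2 and 3 Slc38a4, at 2.2 and 2.78 CPM, lay below its own WT range. Its neighbour Slc38a2, at 76.0 and 77.1 CPM, lay within its own WT range.

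None of the lysosomal carriers passed the threshold in edgeR. Slc38a9, an arginine sensor on the lysosome that signals to the growth kinase mTORC1, was read at 11.7, 10.5 and 10.3 CPM in WT and at 16.3, 12.9 and 14.04 CPM in KO libraries. The KO values all lay above the WT values, by a log2 fold change of 0.41 ± 0.21 (SE, edgeR adjusted p = 0.399). Slc38a7 (SNAT7), which releases glutamine from lysosomes, averaged 16.3 ± 6.89 and 11.6 ± 2.92 CPM. Slc36a1 (PAT1), which exports small amino acids from lysosomes with protons, was read at 21.4, 44.5 and 24.9 CPM in WT and at 27.8, 12.5 and 14.5 CPM in KO libraries. WT replicate 2 was the highest and KO replicates 2 and 3 the lowest, with KO replicate 1 inside the WT range (log2 fold change -0.72, interval -1.66 to 0.22). Slc36a4 stood at 0.145, 0.914 and 0.679 CPM in WT and at 0.353, 0.0667 and 0 CPM in KO libraries, too low to be tested, and its groups overlapped. Slc38a6, a little-studied member, was read at 1.78, 2.38 and 1.44 CPM in WT and at 0.9804, 0.667 and 1.07 CPM in KO libraries. Its groups did not overlap (log2 fold change -1.03 ± 0.52 SE, edgeR adjusted p = 0.388).

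The Slc1 family holds glutamate transporters and the neutral exchangers ASCT1 and ASCT2. Slc1a4 (ASCT1), which carries serine and whose promoter window holds a match to the letters TGATGNAA, was read at 4.93, 4.75 and 6.01 CPM in WT and at 3.22, 2.87 and 2.07 CPM in KO libraries. All KO libraries lay below all WT libraries, which were close to each other (log2 fold change -0.94 ± 0.34 SE, edgeR adjusted p = 0.261). Slc1a5 (ASCT2), a glutamine importer of dividing cells, was read at 21.5, 7.19 and 12.5 CPM in WT and at 15.9, 16.7 and 19.4 CPM in KO libraries. Its KO values lay inside the WT range, with an interval of -0.58 to 1.24.

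The glial glutamate transporters were highest in 1 WT library. Slc1a3 (GLAST), a marker of radial glia, stood at 2.75, 0.305 and 19.8 CPM in WT replicates 1, 2 and 3 and at 0.824, 0 and 0.143 CPM in KO replicates 1, 2 and 3. WT replicate 3 lay far above the others, and KO replicate 1 lay above WT replicate 2, so the groups overlapped. The log2 fold change was -4.41 ± 1.62 (SE, edgeR adjusted p = 0.267, DESeq2 adjusted p = 0.0185), and it was -2.13 without WT replicate 3 and -6.65 without KO replicate 1 (adjusted p over all alternatives 0.0185 to 0.9995). Slc1a2 (GLT-1), of astrocytes, stood at 1.38, 0.122 and 17.2 CPM in WT, at 0.235 CPM in KO replicate 1 and at 0 in KO replicates 2 and 3, and was too low in most libraries to be tested. The nervous system sum was likewise highest in WT replicate 3, at 523 CPM against 99.7 and 57.2 CPM in WT replicates 1 and 2. So were the heart, mesoderm, erythroid and yolk sac sums, at 292, 80.03, 6477 and 721 CPM in WT replicate 3. The part of these tissues in the values of Slc1a3 and Slc1a2 was not tested. Slc1a6 (EAAT4), of cerebellar neurons, averaged 1.48 ± 1.49 and 0.853 ± 0.134 CPM.

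The Slc43 family gave values in both directions. Slc43a3, a carrier of nucleobases in spite of its place in this family, was read at 47.3, 71.7 and 41.4 CPM in WT and at 73.1, 104 and 113 CPM in KO libraries. The KO values all lay above the WT values, KO replicate 1 by a narrow margin over WT replicate 2, with means of 53.5 ± 16.02 and 96.9 ± 21.2 CPM (log2 fold change 0.86 ± 0.27 SE, edgeR adjusted p = 0.221). Slc43a1 (LAT3), which carries large neutral amino acids and is found in red cell precursors and liver, was read at 12.7, 11.2 and 39.1 CPM in WT and at 8.82, 7.6 and 5.56 CPM in KO libraries. All KO values lay below the WT values, and WT replicate 3 was the highest (log2 fold change -1.52 ± 0.52 SE, edgeR adjusted p = 0.246). Without WT replicate 3 its log2 fold change was -0.70. The erythroid sum was also highest in WT replicate 3 and lower in every KO library than in every WT library, and its part was not tested. These genes lie 73.0 kb apart on chromosome 2 with opposite signs. Slc43a2 (LAT4), which lets neutral amino acids leave epithelial cells, was read at 34.8, 70.9 and 44.2 CPM in WT and at 47.8, 49.8 and 72.3 CPM in KO libraries, and the groups overlapped (interval -0.53 to 0.89). The counts of Slc43a1 and Slc43a2 were all multiples of 3.

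**Figure D4:**
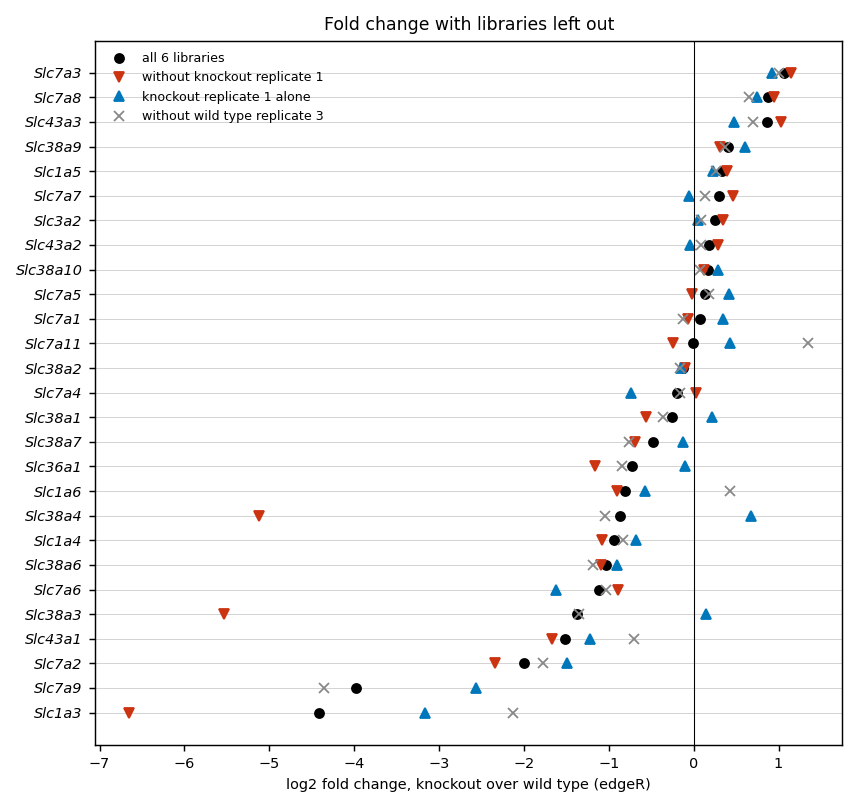
Log2 fold change of KO over WT for the 27 tested transporters with all 6 libraries, without KO replicate 1, with KO replicate 1 as the only KO library and without WT replicate 3. Slc38a4 moves from -5.13 to 0.68 between KO replicate 1 left out and KO replicate 1 alone, whereas Slc7a8, Slc7a2 and Slc43a3 keep their side of 0 in all 4. The Slc7a9 value without KO replicate 1 is not drawn, since both remaining KO libraries are at 0.

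Below 1 CPM on average, Slc7a10, Slc38a5, Slc7a14 and Slc38a8 had enough counts for a fit. Slc38a5 (SNAT5) was read at 1.34, 0.853 and 2.27 CPM in WT, at 0.471 CPM in KO replicate 1 and at 0 in KO replicates 2 and 3. Its KO values lay below its WT values (log2 fold change -3.03, edgeR adjusted p = 0.318), and it was named after its values were seen. Slc1a1 averaged 0.424 CPM, and Slc1a7, Slc36a2, Slc36a3, Slc7a13 and Slc7a15 averaged at most 0.097 CPM each.

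Beside the transporters, 3 lists of related genes were tested. Over all genes tested by edgeR, 8.68% were higher and 6.86% lower in the KO at p under 0.05 before adjustment. The shares past the threshold were 0% higher and 0.0505% lower. Of 31 carriers from other families, 18 were tested, with 0 past the threshold in edgeR, 2 higher and 0 lower at p under 0.05 before adjustment, and a median log2 fold change of -0.14. Slc25a12, which exports aspartate from mitochondria, averaged 13.4 ± 1.29 CPM in WT and 22.1 ± 1.02 CPM in KO libraries (log2 fold change 0.72, edgeR adjusted p = 0.180), and Slc25a29, which carries basic amino acids into mitochondria, 94.7 ± 41.6 and 190.3 ± 45.3 CPM (1.01, edgeR adjusted p = 0.241). Of 28 genes of the ATF4 response, 25 were tested, with 0 past the threshold, 1 higher and 1 lower at p under 0.05 before adjustment and a median of -0.02. Cebpb, a partner of ATF4 that is also a regulator of the decidua, averaged 300.2 ± 57.5 and 622 ± 188 CPM (1.05, edgeR adjusted p = 0.183). Psat1, of serine synthesis, averaged 84.3 ± 3.93 and 51.2 ± 19.8 CPM (-0.72, edgeR adjusted p = 0.282). Of 37 symbols listed for amino acid sensing by mTORC1, 34 were among the symbols of these data and 33 were tested. The list had 0 past the threshold, 1 higher and 1 lower at p under 0.05 before adjustment and a median of -0.04. Flcn, which activates Rag GTPases on lysosomes, averaged 40.1 ± 7.65 and 67.7 ± 17.3 CPM (0.76, edgeR adjusted p = 0.236), and Rragd, a Rag GTPase, 6.83 ± 2.296 and 2.96 ± 1.38 CPM (-1.20, edgeR adjusted p = 0.282). DESeq2 called 1 of the other carriers and 1 ATF4 gene higher, Slc25a12 and Cebpb, and none of the mTORC1 genes. Over all its 15237 genes it called 2.98% higher and 3.26% lower.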

How the data were processed

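Per the labels' protocols, RNA was taken up in Trizol and made into libraries with the Lexogen QuantSeq kit, which reads the 3' ends of transcripts. The authors deposited 1 table of raw counts per gene symbol for each sample. Bowtie2, edgeR and the mm10 build are named per the submitters' processing notes, without versions, and no source used here gives the annotation or strand handling. Genotype labels gave the groups. No label says that the samples of a group are separate embryos, so each p-value measures the spread between these libraries, whatever its source. The sample codes begin with 32 for WT replicate 1 and 45 for the other 5 libraries, and the labels do not explain these numbers. Genes were kept with filterByExpr (minimum count 10), scaled by TMM and compared with the quasi-likelihood test of edgeR 4.0.16 in R 4.3.3 without covariates, over 13848 genes, with Benjamini-Hochberg adjustment and a threshold of 0.05. DESeq2 1.42.0, other scalings, no filter, a replicate block, division by common divisors and each library left out were alternatives. The fits were run on counts simulated with 200 changed genes and the same spread for every gene. That run cannot speak for libraries that differ within a group as these do. Of 11680 genes with at least 10 counts in every sample, 2330 had counts sharing a divisor above 1, and 6 of the 28 transporters did. Levels of different genes were therefore compared only for the limit of 1 CPM and to choose the genes to name. Positions are from GENCODE M21 (mm10).

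Values in every sample are given for the 2 genes of each family with the highest mean CPM (only to choose them), the 10 smallest p, any past the threshold, both heavy chains and Slc38a9. Others named with values per sample were chosen after their values were seen. The members, lists and tests were chosen with earlier results of these data known.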

Additional observations from a re-analysis of the deposited data

How the results depend on the processing

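Of 312 refits of 24 named transporters, 292 kept their direction and side of the threshold, 7 passed it and 13 changed sign. With DESeq2, 1 transporter was higher and 3 lower, and 1 gene each of the other carriers and the ATF4 genes was higher, beside 2.98% of all genes higher and 3.26% lower. The sign changes outside single left-out libraries came with KO replicate 1 alone, a comparison chosen after seeing the data in which the lone library is assumed to vary like WT: Slc38a1 0.22, Slc43a2 -0.0431, Slc38a4 0.68, Slc38a3 0.15 and Slc7a7 -0.0570. It also gave a transporter median of -0.0500, a carrier median of -0.22, and 9 transporters above (23.2% of all genes). Leaving out 1 library at a time gave ranges of log2 fold change of -0.0257 to 0.53 for Slc43a2, -0.0274 to 0.29 for Slc7a5, -0.25 to 0.0551 for Slc38a2, -0.12 to 0.25 for Slc7a1 and -0.0272 to 0.46 for Slc7a7. It gave 0 to 3 transporters lower, the 3 (Slc38a3, Slc38a4 and Slc7a9) without KO replicate 1, where calls over all genes also went from 7 to 466 lower and from 0 to 252 higher, 6 to 12 with all KO values below (12 without KO replicate 1, where 23.6% of all genes were), and transporter medians of -0.40 to -0.0769. Carrier medians were -0.33 to -0.0553, with 0 to 1 carriers lower, 0 to 1 ATF4 genes higher and 0 to 1 lower, 0 to 1 mTORC1 genes lower and mTORC1 medians of -0.0423 to 0.0458. The carrier median was -0.32 without a filter, -0.34 with DESeq2 and -0.22 with a replicate block. Without WT replicate 1, whose code begins with another number, 0 transporters passed the threshold. By the labels' replicate numbers, same-numbered samples share only a number, with correlations of their deviations of 0.16, -0.04 and 0.07, and the block left 0 transporters past the threshold and took the calls over all genes from 7 to 0. The count of transporters above 1 CPM was 28 with library size as the only scaling. A count of 0 allows up to 0.0784 to 0.214 CPM per library, for counting error only.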
